A study of Mus musculus with 2 samples.

Results

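The Src, Syk and Btk family kinases are cytoplasmic tyrosine kinases that carry signals from immune receptors. Members were the genes of the deposited table named Lyn, Fgr, Src, Fyn, Lck, Blk, Csk, Syk or Btk, which gave 9 of 34745 genes. All 9 were measured, and all 9 passed the filter on low values, which kept a gene that reached 1 FPKM in either library. FPKM are reads scaled to gene length in kilobases and to the library total. Bone marrow cells of C57BL/6 mice aged 6 to 8 weeks were cultured for 7 days with GM-CSF, a myeloid growth factor, at 50 ng/ml (CHBP- M-MDSC), or with GM-CSF and CHBP, a cyclic peptide derived from erythropoietin (CHBP+ M-MDSC). Both groups thus had GM-CSF, and the labels give the strain of the CHBP+ sample as C57BL/7. The dose of CHBP is 20 μM in the methods, whereas the dose series of the study is in nM. Monocytic myeloid-derived suppressor cells (M-MDSCs) were then sorted as CD11b+Ly6G-Ly6C high cells. How many mice gave cells to a library is not given. Each condition was sequenced as 1 library with no replicate, so no difference has a p-value or a replicate spread, and CHBP treatment cannot be told apart from any other difference between the libraries. Intervals are exact 95% intervals for counting error only.

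In leukocytes, Src family kinases sit at the inner face of the membrane and phosphorylate the tyrosines of ITAMs, activating motifs in receptor chains, and of ITIMs, their inhibitory counterparts. A phosphorylated ITAM recruits Syk through its paired SH2 domains, and Syk and the Tec family kinase Btk then act on adaptors and on phospholipase C gamma. Csk holds Src family kinases inactive by phosphorylating a tyrosine near their C-terminus, and receptor phosphatases such as CD45 (Ptprc) remove that phosphate. Lyn and Fgr are Src family kinases of myeloid cells, whereas Lck is known for T cell and Blk for B cell receptor signalling.

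The genes lay apart from each other in the deposited coordinates, which overlapped those of RefSeq on GRCm38.p6 for all 9. Edges could differ, as for Lyn, which ends at 3791612 in RefSeq, and Csk, which ends at 57653631 there. Lyn was on chromosome 4 from 3678115 to 3813122, Fgr on chromosome 4 from 132974095 to 133001910 and Lck on chromosome 4 from 129548344 to 129573641. Src was on chromosome 2 from 157418444 to 157471862, Fyn on chromosome 10 from 39368855 to 39565381 and Blk on chromosome 14 from 63372837 to 63417187. Csk was on chromosome 9 from 57626647 to 57645653, Syk on chromosome 13 from 52583173 to 52648792 and Btk on chromosome X from 134542336 to 134583570. Only Lyn overlapped an entry with reads, Gm26857, which had 9 reads in CHBP- and 6 reads in CHBP+ M-MDSC. Although these kinases share a fold, no stretch of 75 bases in the longest coding transcript of any of them recurred in a coding transcript of another gene. At 25 bases, the shortest read retained, Fgr shared 1 of 3339 words with other genes, Src shared 1 of 3882 and Syk shared 10 of 5339.

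RefSeq start sites were at hand for 7 of the 9 genes (10 start sites, GRCm38.p6), and not for Lyn and Blk. The windows of Csk, Syk and Btk are shown because the counting intervals of their CPM ratios left out 1 and a start site was at hand. Csk has a further start upstream that is not shown, with 1 match and 9 CG pairs in its window. CPM are reads scaled to the library total, and the ratio is CHBP+ to CHBP-. Each window runs 5′ to 3′ on the gene's strand, from 250 bases before the start site to 30 bases from it on, and capitals mark GAGGAA or its reverse complement TTCCTC, the core of the site bound by the myeloid and B cell factor PU.1. The windows are chr9:57645624-57645903 (minus strand) for Csk, chr13:52583187-52583466 and chr13:52596632-52596911 (plus strand) for the upstream and the downstream start of Syk, and chrX:134583111-134583390 (minus strand) for Btk.
Csk: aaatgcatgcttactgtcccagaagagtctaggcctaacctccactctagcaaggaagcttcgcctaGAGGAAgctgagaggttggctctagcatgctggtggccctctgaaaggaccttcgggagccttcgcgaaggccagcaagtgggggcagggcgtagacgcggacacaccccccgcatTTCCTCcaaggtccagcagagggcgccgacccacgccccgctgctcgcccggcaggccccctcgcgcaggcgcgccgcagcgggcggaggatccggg
Syk, upstream start: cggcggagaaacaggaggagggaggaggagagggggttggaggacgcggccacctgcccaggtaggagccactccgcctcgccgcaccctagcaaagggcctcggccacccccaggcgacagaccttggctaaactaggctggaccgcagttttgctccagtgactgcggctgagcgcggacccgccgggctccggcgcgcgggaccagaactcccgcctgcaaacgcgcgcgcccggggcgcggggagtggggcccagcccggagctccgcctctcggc
Syk, downstream start: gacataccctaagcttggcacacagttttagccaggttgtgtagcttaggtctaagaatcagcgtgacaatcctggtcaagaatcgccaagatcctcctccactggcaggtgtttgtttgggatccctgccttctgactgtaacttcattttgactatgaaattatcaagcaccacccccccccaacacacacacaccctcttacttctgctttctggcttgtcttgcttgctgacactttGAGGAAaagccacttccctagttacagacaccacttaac
Btk: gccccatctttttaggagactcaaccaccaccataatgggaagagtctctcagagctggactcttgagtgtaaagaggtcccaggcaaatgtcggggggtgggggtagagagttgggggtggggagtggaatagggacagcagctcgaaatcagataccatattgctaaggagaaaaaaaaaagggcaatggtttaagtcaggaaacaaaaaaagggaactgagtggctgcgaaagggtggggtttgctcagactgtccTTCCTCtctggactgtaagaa
Over 300 bases (50 after the start), 7 of the 10 start sites held the 6 letters on either strand, against 28.3% of 32851 promoters of that length. This is a match of letters and not a site. The Csk start shown, which is the edge of the deposited gene, held 3 matches, and the downstream Syk start and the Btk start held 1 each, which began 9 bases before and 9 bases after the start, respectively. The Syk starts differed in composition, with 72.0% GC and 31 CG pairs upstream against 48.0% GC and 2 CG pairs downstream. The counts are per gene, so reads from the starts of a gene cannot be told apart.

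Of the Src family members, Lyn and Fgr were abundant and alike in both libraries. Lyn, which can either start or dampen myeloid signalling, had 4338 reads (39.5 FPKM) in CHBP- and 4336 reads (40.0 FPKM) in CHBP+ M-MDSC, a CPM ratio of 1.01 (0.970 to 1.06). Fgr, a kinase of monocytes and neutrophils that acts beneath integrins and Fc receptors, had 4595 reads (59.0 FPKM) and 4496 reads (58.4 FPKM), a CPM ratio of 0.991 (0.951 to 1.03). Both intervals spanned 1. Read for read, Fgr stood at 1.06 times Lyn in CHBP- and 1.04 times Lyn in CHBP+ M-MDSC.

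Src and Fyn, which are expressed in many tissues, were present at a low level. Src, the founding member, had 310 and 295 reads (1.84 and 1.77 FPKM), a CPM ratio of 0.964 (0.819 to 1.13). Fyn, which acts in T cells and mast cells, had 667 and 710 reads (4.54 and 4.89 FPKM), a CPM ratio of 1.08 (0.968 to 1.20). A difference in either was not detectable at this depth.

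The lymphoid members Lck and Blk had the fewest reads. Lck, the kinase that phosphorylates the T cell receptor complex, had 146 reads (1.88 FPKM) in CHBP- and 120 reads (1.57 FPKM) in CHBP+ M-MDSC, a CPM ratio of 0.832 (0.648 to 1.07). Blk, a kinase of B cells also found in plasmacytoid dendritic cells, had 131 reads (3.21 FPKM) and 84 reads (2.08 FPKM), a CPM ratio of 0.649 (0.488 to 0.860), or 1.54 times lower in CHBP+ (1.16 to 2.05). Blk was the member with the lowest ratio, and its interval lay below 1.

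Csk, the common inhibitor of the family, was lower in the CHBP+ library. It had 3386 reads (74.7 FPKM) in CHBP- and 2883 reads (64.4 FPKM) in CHBP+ M-MDSC, a CPM ratio of 0.862 (0.820 to 0.906). Syk, the kinase that docks on ITAMs, was higher, with 8531 and 9586 reads (37.9 and 43.1 FPKM) and a CPM ratio of 1.14 (1.10 to 1.17). Btk, which acts with Syk on phospholipase C gamma and whose loss impairs B cell development, was higher too, with 3029 and 3588 reads (46.1 and 55.3 FPKM) and a CPM ratio of 1.20 (1.14 to 1.26).

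**Figure D1:**
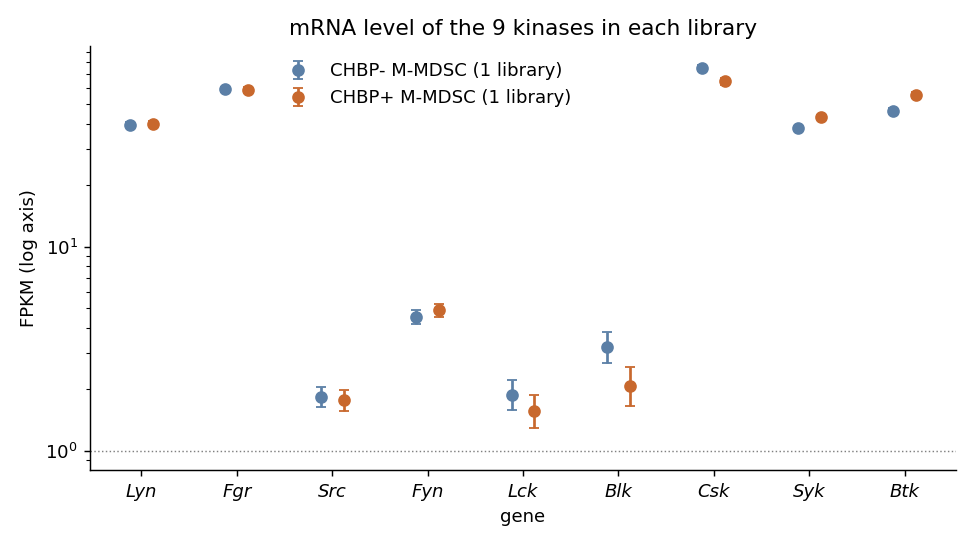
FPKM on a log axis of the 9 kinases in the CHBP- (blue) and the CHBP+ (orange) M-MDSC library; bars are 95% counting intervals and the dotted line is the filter of 1 FPKM. Lyn, Fgr, Csk, Syk and Btk sit between 37.9 and 74.7 FPKM and the other 4 between 1.57 and 4.89 FPKM.

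The counting intervals of 4 of the 9 members left out 1, with Syk and Btk higher and Csk and Blk lower in CHBP+ M-MDSC. Over the 10948 genes that passed the filter, such an interval lay above 1 for 27.9% and below 1 for 31.0%, so that the members' share of 2 and 2 was near the background. The main value of the comparison, log2((FPKM in CHBP+ + 1)/(FPKM in CHBP- + 1)), understates the change of low genes. It ran over the members from -0.45 (Blk) through -0.21 (Csk), -0.17 (Lck), -0.03 (Src), -0.01 (Fgr), 0.02 (Lyn), 0.09 (Fyn) and 0.18 (Syk) to 0.26 (Btk). Their median was -0.01, beside a median of -0.03 over all 10948 genes. None of the 9 was 1.5-fold apart on that scale, 0 higher against a background of 3.42% and 0 lower against 2.89%. Counts of 0 among 9 genes are near what those shares give. In the order of all log2 ratios, Blk stood at the percentile of 6.70 and Btk at that of 83.2, and the other 7 between 25.0 and 76.4.

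**Figure D2:**
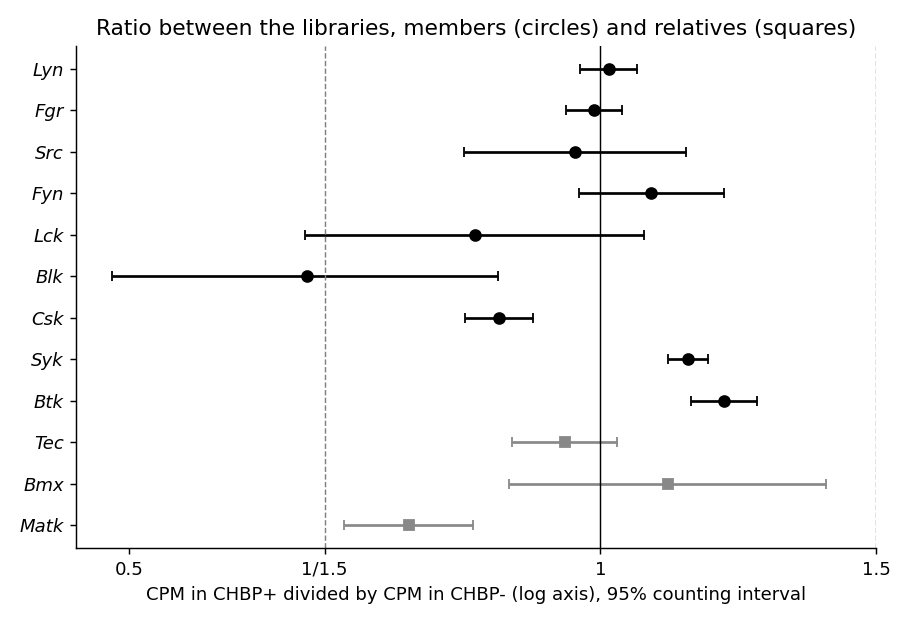
CPM in CHBP+ divided by CPM in CHBP- M-MDSC (log axis) for the 9 kinases (circles) and for the 3 relatives that passed the filter (squares), with 95% counting intervals; dashed lines mark 1.5-fold. The intervals of Syk and Btk lie above 1 and those of Csk, Blk and Matk below 1.

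The log2 ratio ran with transcript length across genes. Whether it did so over the members alone was not tested. Over 10211 genes with a GENCODE M1 coding transcript the log2 ratio had a Spearman's rho of 0.687 with the length of the longest transcript, and genes are not independent replicates of a condition. Syk has the longest transcript of the members, 5363 bases, and Lck the shortest, 2185 bases. With the trend in length and GC taken out by a polynomial, Syk stood at -0.025 and Lyn at -0.078 on the log2 scale, below 0 where they had been above it. The median over all fitted genes was then -0.035, so that Syk lay near it and Lyn below it. Btk (transcript of 2540 bases) stood at 0.26 as before, Blk (2475 bases) at -0.38, Csk (2748 bases) at -0.11 and Lck at -0.06. The higher Btk was thus as large without the trend, whereas Syk was then near the median of all fitted genes. The part of the trend in any single gene was not tested.

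**Figure D3:**
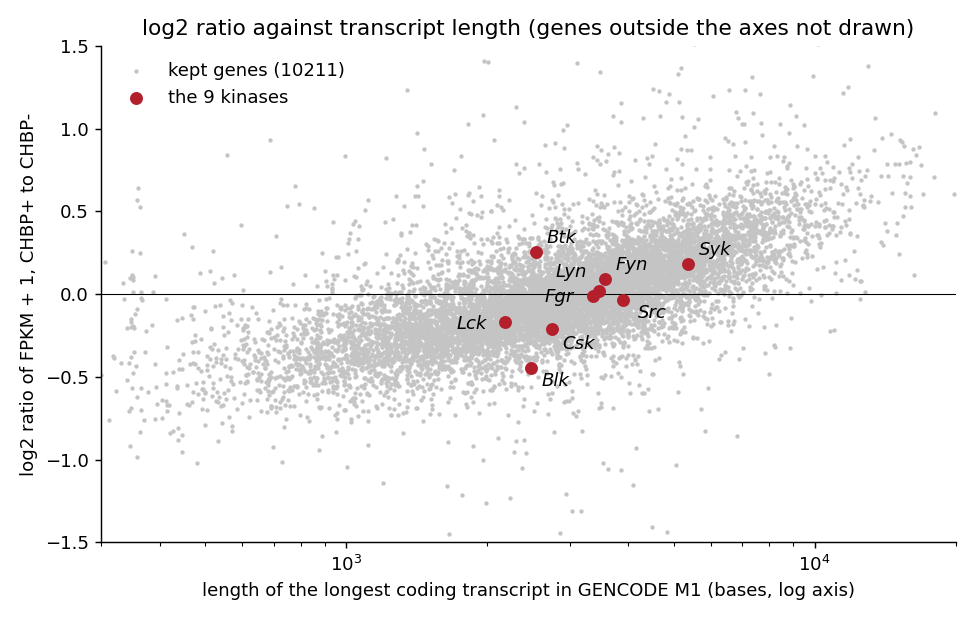
log2 ratio against the length of the longest coding transcript (log axis) for 10211 genes (grey) and the 9 kinases (red). Syk lies within the cloud at 5363 bases, Btk lies above most genes of its length at 0.26, and Blk lies below most of them at -0.45.

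The order of the members by level depended on the gene length used. By the deposited FPKM the order in CHBP- M-MDSC was Csk, Fgr, Btk, Lyn, Syk, Fyn, Blk, Lck and Src, where the intervals of Lyn and Syk and those of Lck and Src overlapped. In CHBP+ M-MDSC it was Csk, Fgr, Btk, Syk, Lyn, Fyn, Blk, Src and Lck, with overlap between Fgr and Btk and between neighbours from Blk to Lck. The FPKM imply a gene length of 13650 bases for Syk, which is 2.55 times its longest coding transcript, but one of 2748 bases for Csk, equal to its transcript. With CPM divided by the longest coding transcript in kilobases, Syk was the highest member, at 96.5 in CHBP- and 110 in CHBP+ M-MDSC, and Csk was at 74.7 and 64.4. On that scale Btk was at 72.3 and 86.8, Fgr at 82.9 and 82.1, Lyn at 76.0 and 76.9, and Fyn at 11.4 and 12.2. Src, Lck and Blk stayed below 5 on either scale. That 5 members were abundant and 4 were low therefore did not depend on the length, whereas the rank of Syk and of Csk did.

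**Figure D4:**
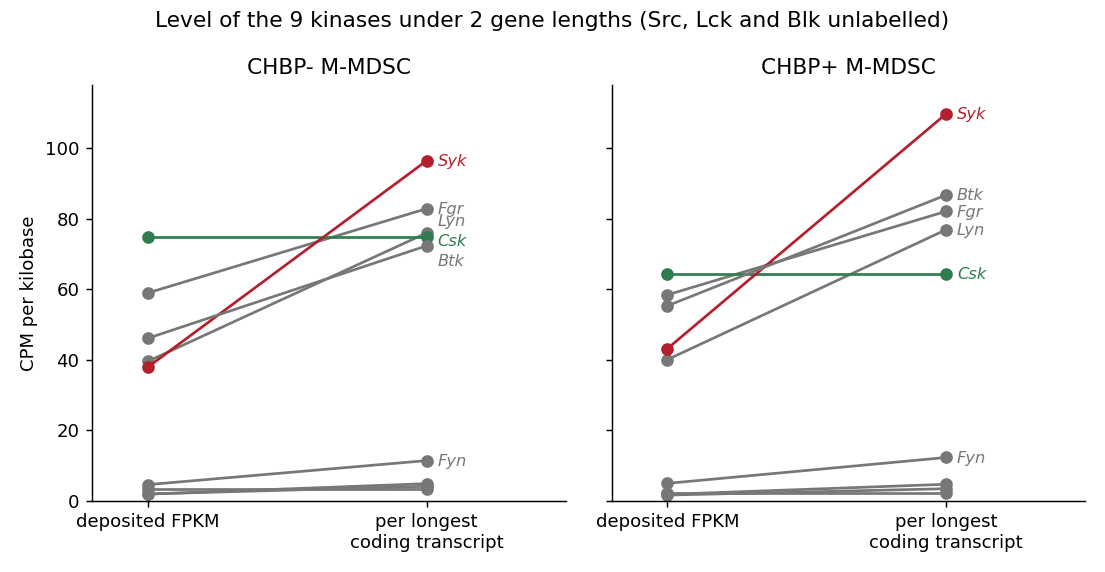
Level of the 9 kinases, in CPM per kilobase, with the length implied by the deposited FPKM (left points) and with the longest coding transcript (right points), for each library. Syk (red) goes from 37.9 to 96.5 in CHBP- and from 43.1 to 110 in CHBP+ M-MDSC, and Csk (green) has the same value on both.

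Among the Src family genes described here (Src, Fyn, Yes1, Fgr, Lyn, Lck and Blk), Fgr and Lyn held most of the summed FPKM, which was 110 in CHBP- and 109 in CHBP+ M-MDSC. Fgr held 53.5% and 53.7% and Lyn 35.9% and 36.8%. Fyn held 4.12% and 4.49%, Blk 2.92% and 1.92%, Lck 1.71% and 1.44%, Src 1.67% and 1.63%, and Yes1 0.115% and 0.102%. In reads, which are not scaled to length, Fgr held 45.0% and 44.7% and Lyn 42.5% and 43.1%. Fgr thus held a larger share than Lyn in both libraries on either measure, and no interval is given for these shares. The share of Blk was lower in CHBP+ M-MDSC.

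Set against Csk within each library, which cancels the scaling between libraries, these Src family genes as a sum had more reads per Csk read in CHBP+ M-MDSC. Their summed reads were 3.02 times those of Csk in CHBP- and 3.49 times in CHBP+ M-MDSC, a factor of 1.16 (1.09 to 1.23). For single members the factor was 1.17 for Lyn (1.10 to 1.25), 1.15 for Fgr (1.08 to 1.23) and 1.25 for Fyn (1.11 to 1.41). It was 1.12 for Src (0.942 to 1.33), 0.965 for Lck (0.748 to 1.24) and 0.753 for Blk (0.563 to 1.00), whose intervals spanned 1. Syk stood at 2.52 times Csk in CHBP- and 3.33 times in CHBP+, a factor of 1.32 (1.25 to 1.40), and Btk at 0.895 and 1.24 times, a factor of 1.39 (1.30 to 1.49). The ratio of Syk to Btk was 2.82 and 2.67, a factor of 0.949 (0.896 to 1.00). The summed reads themselves were 10209 in CHBP- and 10060 in CHBP+ M-MDSC. Csk alone was 1.16 times lower in CHBP+ (1.10 to 1.22), so the factor for the sum restates the lower Csk. All these factors set genes of unequal transcript length side by side, and the length trend given above applies to them. Without the length and GC trend, Csk stood at -0.11 on the log2 scale, Lyn at -0.078, Fgr at -0.057, Syk at -0.025 and Btk at 0.26. Lyn, Fgr and Syk thus lay closer to Csk than with the trend.

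Of 9 other kinases of the Src, Syk and Tec families and of Csk's own family, Tec, Bmx and Matk passed the filter. Matk, which acts on the same C-terminal tyrosine as Csk, had 1023 and 762 reads (7.02 and 5.29 FPKM), a CPM ratio of 0.754 (0.686 to 0.829) and a log2 ratio of -0.35. Tec, which gives Btk's family its name, had 1358 and 1273 reads (12.4 and 11.7 FPKM), a CPM ratio of 0.949 (0.879 to 1.03). Bmx, a Tec kinase of myeloid and endothelial cells, had 144 and 157 reads (2.46 and 2.72 FPKM), a CPM ratio of 1.10 (0.875 to 1.39). None of these 3 was 1.5-fold apart, and their median log2 ratio was -0.07. The T cell kinases Txk (28 and 16 reads) and Zap70, the T cell counterpart of Syk (11 and 5 reads), were below 1 FPKM. So were Yes1 (22 and 19 reads), Ptk6 (11 and 17 reads), Srms (3 and 5 reads) and Frk (0 and 1 reads). At 0 reads, a level of up to 0.182 CPM in the CHBP- library is possible.

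Upstream of the kinases, the list of ITAM receptors and adaptors had 21 of 22 names in the table, and 19 passed the filter. Of these, 1 was at least 1.5-fold higher and 2 were lower, with a median log2 ratio of -0.11. Without the length and GC trend none was 1.5-fold lower and the median was 0.05. The most abundant were Clec4n (Dectin-2), a receptor for fungal sugars, at 815 and 713 FPKM, Tyrobp (DAP12), the adaptor of TREM receptors, at 689 and 671 FPKM, and Fcgr3, an activating IgG receptor, at 254 and 253 FPKM. Their log2 ratios were -0.19, -0.04 and -0.01. Ms4a2, the beta chain of the high-affinity IgE receptor, had 182 and 446 reads (2.46 and 6.11 FPKM) and a log2 ratio of 1.04. Hcst (DAP10), an adaptor that carries no ITAM but pairs with the same receptors, had 117 and 63 reads (16.2 and 8.86 FPKM) and a log2 ratio of -0.81, or -0.37 without the trend. Cd79a, an ITAM chain of the B cell receptor, had 444 and 248 reads (18.5 and 10.5 FPKM) and a log2 ratio of -0.77, or -0.54 without the trend. The list of ITIM receptors held 20 genes, of which 19 passed the filter, with none 1.5-fold apart and a median log2 ratio of 0.00. Lilrb4a, an inhibitory receptor of myeloid cells, was at 712 and 714 FPKM (log2 ratio 0.00). Lilr4b, also counted on this list, was at 275 and 266 FPKM (-0.04). Fcgr2b, the inhibitory IgG receptor, was at 155 and 179 FPKM (0.21).

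Regulators of the Src family, both its opponents and its activators, were nearly all present. Of 17 phosphatases and other negative regulators, all of which passed the filter, 1 was at least 1.5-fold higher and none lower, with a median log2 ratio of 0.09. Without the length and GC trend that median was -0.03. Ptpn6 (SHP-1), the phosphatase that ITIMs recruit, was at 69.6 and 61.3 FPKM (log2 ratio -0.18), and Dok3, an adaptor that dampens Syk and Btk signalling, was at 49.1 and 35.1 FPKM (-0.47). Ptpn1, another tyrosine phosphatase, was at 38.2 and 39.4 FPKM (0.04). Without the trend Ptpn6 was at -0.08, Dok3 at -0.18 and Ptpn1 at -0.06. Cbl, the ubiquitin ligase that marks Syk and Src kinases for degradation, had 3439 and 6190 reads (11.8 and 21.6 FPKM) and a log2 ratio of 0.81, or 0.60 without the length and GC trend. All 4 receptor phosphatases that free the C-terminal tyrosine were above 0, with a median log2 ratio of 0.44 that was 0.18 without the trend. Ptpre was at 32.0 and 43.3 FPKM (log2 ratio 0.43), Ptpra at 35.0 and 37.0 FPKM (0.08) and Ptprc at 23.7 and 33.1 FPKM (0.46). Ptprj (CD148) had 1832 and 2839 reads (12.2 and 19.1 FPKM) and a log2 ratio of 0.61, past 1.5-fold, but 0.23 without the trend. Csk had 1.85 reads per read of Ptprj in CHBP- and 1.02 in CHBP+ M-MDSC, and 0.321 and 0.199 reads per read of Ptprc. Per read of Ptpn6 it had 0.590 and 0.577 reads, a factor of 0.979 (0.919 to 1.04). The longest transcripts of Ptprj and Ptprc, 7634 and 5814 bases, exceed that of Csk, 2748 bases, so these pairs carry the length trend. Without it Csk was at -0.11 and Ptprc at 0.17.

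**Figure D5:**
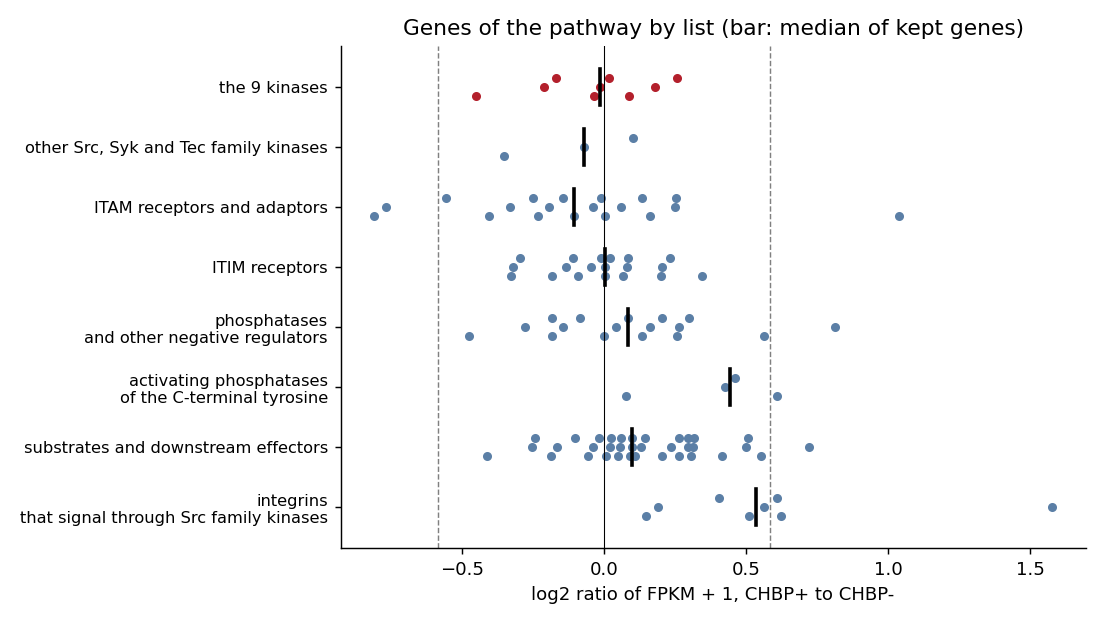
log2 ratio of FPKM + 1, CHBP+ to CHBP-, for every gene that passed the filter in the 9 kinases (red) and in 7 lists of their pathway (blue), with the median as a bar and dashed lines at 1.5-fold. The 9 kinases lie between the dashed lines around a median of -0.01, and the integrin list has the highest median, 0.54.

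Downstream, 36 substrates and effectors were in the table and 35 passed the filter, with 1 at least 1.5-fold higher, none lower and a median log2 ratio of 0.10. Without the length and GC trend the median was 0.01, with 19 of 35 above 0. The most abundant were Hcls1 (HS1), an actin-binding substrate of Src kinases and Syk, at 187 and 167 FPKM (log2 ratio -0.16), Malt1, the protease of the CARD9 complex, at 51.9 and 76.6 FPKM (0.55), and Pik3ap1 (BCAP), an adaptor for PI 3-kinase, at 48.9 and 70.0 FPKM (0.51). Without the trend Hcls1 was at -0.02, Malt1 at 0.32 and Pik3ap1 at 0.35. Pxn (paxillin), a focal adhesion substrate, had 2371 and 4009 reads (10.2 and 17.5 FPKM) and a log2 ratio of 0.72, or 0.69 without the trend. The 7 integrin genes have 8 entries, since Itgam is listed under a pair of overlapping entries whose counts are uncertain. All 8 were above 0, 3 were at least 1.5-fold higher and none lower, and their median log2 ratio was 0.54. Without the trend, 7 entries could be fitted, their median was 0.29 and 1 (Itgb3, at 1.33) was at least 1.5-fold higher. Itgb2, the beta chain of the leukocyte integrins that signal through Fgr and Syk, was at 350 and 388 FPKM (log2 ratio 0.15), and Itgax at 107 and 142 FPKM (0.41). Itgb3, the beta chain of the vitronectin receptor and a partner of Src, had 522 and 1815 reads (3.67 and 12.9 FPKM) and a log2 ratio of 1.58. Itga4, a chain of the receptor for VCAM-1, had 969 and 1611 reads (3.77 and 6.34 FPKM) and a log2 ratio of 0.62, or 0.12 without the trend. The entries of Itgam, the sorting marker CD11b, were at 157 and 232 FPKM (log2 ratio 0.56), with 18653 and 27265 reads, and the other entry had 8703 and 13147 reads (0.61). No test of these lists was made, and the counts stand beside the backgrounds of 3.42% and 2.89%.

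Markers of other cells were present beside those of monocytes, and some went lower with Blk. In bulk RNA, fewer cells of a type and less RNA per cell cannot be told apart. The monocyte list held Lyz2 at 9756 and 7830 FPKM (log2 ratio -0.32), Cd14 at 206 and 179 FPKM (-0.21) and Ly6c2, which encodes the sorting marker Ly6C, at 56.9 and 34.0 FPKM (-0.73), with 1 of 10 entries past 1.5-fold in each direction. Of the 10 entries 5 were above and 5 below 0, and those above included Csf1r, the receptor that monocytes depend on, at 113 and 126 FPKM (0.15), Adgre1 at 158 and 184 FPKM (0.22), Ccr2 at 3.29 and 3.84 FPKM (0.17) and both entries of Itgam. Without the trend Ly6c2 was at -0.45 and none of the 9 entries that could be fitted was past 1.5-fold. Of 10 B cell markers 6 passed the filter and 1 (Cd79a) was at least 1.5-fold lower, with summed FPKM of 43.8 in CHBP- and 30.5 in CHBP+ M-MDSC. None of the 10 was at 0 in both libraries. Most of the difference in the sum came from Cd79a and Cd79b, the latter at 13.8 and 9.07 FPKM (log2 ratio -0.56). Cd22, at 3.66 and 3.63 FPKM, was at -0.01, Blnk at -0.04 and Ebf1, below 1 FPKM, at -0.01, and Pax5, at 1.66 and 2.00 FPKM, was at 0.18. Per Blk read, Cd79b had 3.66 and 3.70 reads, a factor of 1.01 (0.736 to 1.40), whereas Pax5 had 2.05 and 3.81 reads, a factor of 1.86 (1.34 to 2.60). The factor was 0.871 for Cd79a (0.629 to 1.21) and 1.22 for Ms4a1 (0.890 to 1.69). For Spib, which is on the plasmacytoid dendritic cell list, it was 1.06 (0.766 to 1.48). Of these intervals only that of Pax5 left out 1. Of 8 plasmacytoid dendritic cell markers 4 passed the filter, all with a log2 ratio below 0, and the summed FPKM was 144 and 103. Bst2 was at 87.4 and 64.3 FPKM (-0.44), Ly6d at 25.0 and 15.3 FPKM (-0.68, past 1.5-fold) and Cox6a2 at 23.2 and 17.5 FPKM (-0.39). Without the trend these were -0.08, -0.33 and -0.05. All 4 markers that passed the filter stayed below 0 without it, with a median of -0.20, and none was past 1.5-fold. Siglech, a defining marker of these cells, had 66 and 58 reads and stayed below 1 FPKM. The part of such cells in the lower Blk was not tested.

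Some T cell markers were low beside Lck, and others were near its level. Of 11 markers 4 passed the filter, none 1.5-fold apart, with summed FPKM of 8.77 and 8.47. The most abundant were Cd28 at 1.63 and 2.24 FPKM (log2 ratio 0.30), Lat at 1.77 and 1.33 FPKM (-0.25) and Trbc2 at 1.31 and 1.42 FPKM (0.06). Cd28 had 1.25 and 2.07 reads per Lck read, a factor of 1.65 (1.20 to 2.27). The defining T cell genes Cd3d (17 and 8 reads), Cd3e (8 and 14 reads) and Cd3g (17 and 7 reads) were below 1 FPKM, whereas Lck had 146 and 120 reads. Of 7 NK cell markers only Klrd1 passed the filter, at 1.70 and 1.66 FPKM (-0.02), and Ncr1 had 0 reads in both libraries. The granulocyte list, with summed FPKM of 1974 and 1423, held S100a9 at 1269 and 937 FPKM (-0.44), S100a8 at 576 and 391 FPKM (-0.56) and Elane at 75.2 and 46.3 FPKM (-0.69), the 1 of 9 past 1.5-fold. Without the trend Elane was at -0.33, none of the 9 was past 1.5-fold, and the median of the list went from -0.22 to 0.01 with 5 of 9 above 0. Ly6g, whose protein the sort gated out, had 46 and 44 reads. Of 8 mast cell and basophil markers that passed the filter, with a summed FPKM of 341 and 286 over all 11, Ms4a2 was at least 1.5-fold higher and Mcpt8, at 46.1 and 29.9 FPKM (-0.61, or -0.35 without the trend), was lower. Cpa3 was at 141 and 130 FPKM (-0.13) and Prss34 at 83.4 and 57.2 FPKM (-0.54). The median of these 8 was -0.12, and -0.04 without the trend. The megakaryocyte and platelet list had 5 of 7 genes past the filter and none 1.5-fold apart, with Pf4 at 258 and 196 FPKM (-0.39), Ppbp at 115 and 110 FPKM (-0.06) and Itga2b at 9.89 and 10.5 FPKM (0.08). Its median went from -0.06 to 0.08 without the trend, with 3 of 5 above 0. Since Lyn, Fyn, Syk and Btk are also known in mast cells, B cells and platelets, their reads are sums over all cells of the library.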

How the data were processed

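mRNA of 1 CHBP- and 1 CHBP+ M-MDSC library was analysed. The authors trimmed adapters and 3′ bases under quality 20, and removed reads under 25 bases and ribosomal reads. The methods name TopHat2, HT-seq and mm9 with single-end reads of 75 bases, whereas the submitters' processing notes list HISAT2 2.0.4, Cufflinks 2.1.1, Cuffdiff and mm10 (GRCm38). The deposited counts are raw reads per gene (16484504 in CHBP- and 16280466 in CHBP+). The deposited FPKM are those counts per gene length and per library total, with no further scaling found. How strand and multiply mapped reads were counted is not given in the sources used here.

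Genes that reached 1 FPKM in either library were kept, with a pseudocount of 1. With 1 library per condition no count model was fitted. CPM ratios have exact Clopper-Pearson 95% intervals, and ratios between genes have exact conditional 95% intervals of an odds ratio. The floor of a gene at 0 is 3 reads. Reads without molecular identifiers are not independent molecules. The length and GC trend was a least-squares polynomial over GENCODE M1 transcripts, matched by identifier for 93.3% of kept genes. Its script and the intervals were tested on simulated data. After removal of the trend the median log2 ratio was added back, which left a median of -0.035 over the fitted genes. Values above or below 0 without the trend are to be read against that median.

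All 9 members are named. Of each list, the 3 genes with the highest mean FPKM and those at least 1.5-fold apart are named, and every relative kept on the list. Some listed genes are not reported here and were left out of the lists and sums. Pax5, Blnk, Ebf1, Csf1r, Adgre1, Ccr2, Siglech, Cd3d, Cd3e, Cd3g, Ly6g, Ncr1 and some pairs for read ratios were chosen after their values were seen. Members and lists were chosen with earlier results of these data known. Alternatives were a pseudocount of 0.1, no filter, a minimum of 5 FPKM, centring on the median, CPM, scaling by trimmed mean of M values (edgeR 4.0.16, R 4.3.3), the trend removed and a fold of 2. Removal of a trend with the deposited gene length, and levels per transcript length, were added after seeing the data. Python 3.11.15, numpy 2.4.6, pandas 2.3.3, scipy 1.17.1 and matplotlib 3.10.9 were used.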

Additional observations from a re-analysis of the deposited data

How the results depend on the processing

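No paired analysis was possible because each condition holds a single library. The log2 ratios of the 9 members stayed within their counting intervals with a pseudocount of 0.1, without a filter, under median centring, with trimmed mean of M values and with CPM. A minimum of 5 FPKM left 5 members, with the same values. Fgr, at -0.01, changed sign under median centring and under trimmed mean of M values, within its counting interval. With the transcript length and GC trend removed, 3 members left their intervals, Lyn at -0.078, Csk at -0.11 and Syk at -0.025. With the trend of the deposited gene length removed instead, these were Lyn at -0.047, Src at -0.19, Csk at -0.12 and Syk at -0.045. Fyn, at 0.089, changed sign to -0.038 under that removal, within its counting interval. Both removals take out a length trend by construction, and Btk stayed above and Blk below 0 under each. With a pseudocount of 0.1, 1 member (Blk) was at least 1.5-fold lower, because its FPKM are low. Over all genes, 374 were higher and 316 lower by 1.5-fold. These counts were 665 and 571 with a pseudocount of 0.1, 218 and 209 at a minimum of 5 FPKM, 176 and 111 with the transcript trend removed, and 85 and 46 at a fold of 2. CPM gave 609 higher, and removal of the deposited length trend gave 202 lower. Depth limits Lck, Blk and Src most, with 84 to 310 reads per library, whereas the other limit, the absence of replicates, applies to every value.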
